A study of Felis catus with 77 samples.

Results

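The genes described here are the 100 feline genes whose level in normal connective tissue (CT) stood highest above their level in the other tissues of the same study. They were chosen from 9147 genes with a CT median of at least 50 normalized counts, out of 19587 identifiers listed and 19524 with a count in any library. For each gene the count was divided by a size factor for its library, the median was taken within each tissue, and the genes were ordered by the CT median plus 1 over the largest of the other 3 medians plus 1. The difference between CT and the other tissues was therefore what chose these genes, and it is given below as a description without a test.

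The libraries came from pet cats (Felis catus) with fibrosarcoma (FSA), a malignant tumor of mesenchymal origin. Tumor (T) and matched normal tissue were cut by laser-capture microdissection (LCM) from formalin-fixed, paraffin-embedded specimens, and their total RNA was sequenced. There were 30 T libraries, 16 of adipose tissue (AT), 11 of CT and 20 of skeletal muscle (SM), 77 in all. No treatment, age or strain is given in the sample labels, each library is 1 tissue of 1 cat, and a cat number shared between tissues marks the same cat. Normal tissue was taken beside the tumor, so the cats with FSA were their own controls and no tissue of a healthy cat entered. The adipose library of cat 5 is named as AT in its title while its tissue label reads tumor. It was kept as AT.

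Connective tissue is built by fibroblasts, which lay down a matrix of collagen fibers and proteoglycans that binds and sheathes organs. Adipose tissue stores lipid in adipocytes, skeletal muscle is made of contractile fibers wrapped in thin sheets of connective tissue, and FSA cells are spindle-shaped cells that also make collagen. In bulk tissue, fewer cells of one type and less RNA per cell cannot be told apart. The count tables name genes by Ensembl identifiers alone. None of these identifiers was found among the 39307 genes of the RefSeq table used here, so the genes are given without symbols or roles, and the labelled tissues could not be checked against markers of fibroblasts, adipocytes or muscle fibers.

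CT libraries held between 847003 and 6329045 counts, T libraries between 957697 and 14585035, AT libraries between 1047617 and 7287267 and SM libraries between 1043709 and 19099337. Libraries of cats 11 to 17 stood apart. Their 3 CT libraries (cats 13, 14 and 17) had counts for 18268 to 18846 genes, against 9698 to 14527 in the CT libraries of the other 8 cats. In T the corresponding ranges were 15797 to 19092 and 13228 to 15400 genes. In AT they were 15761 to 17920 and 11569 to 16161 genes, the latter reaching into the former because of cat 5. In SM they were 15689 to 17875 and 9744 to 15102 genes. The labels name no batch for these cats, and the methods describe RNA processing and sequencing of all samples as 1 batch. Some of the results that rest on them are also given without them or within them alone.

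The CT medians of the 100 genes ran from 50.4 to 13570 normalized counts, with a median of 116. Their ratio to the largest other median ran from 5.21 to 125, with a median of 7.99. The last gene inside the limit, ENSFCAG00000007290, had medians of 76.5 in CT and 13.9 in SM and a ratio of 5.21, and the first outside, ENSFCAG00000007561, had 133 in CT, 24.9 in AT and a ratio of 5.17. The list thus ended where neighboring genes differed little. The largest of the other 3 medians was in AT for 47 genes, in T for 32 and in SM for 19, and 2 genes had a median of 0 in all 3 tissues. A median under 10 normalized counts was found for 70 genes in T, for 53 in AT and for 72 in SM. A median of exactly 0 was found for 9 genes in T, 20 in AT and 29 in SM.

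**Figure D1:**
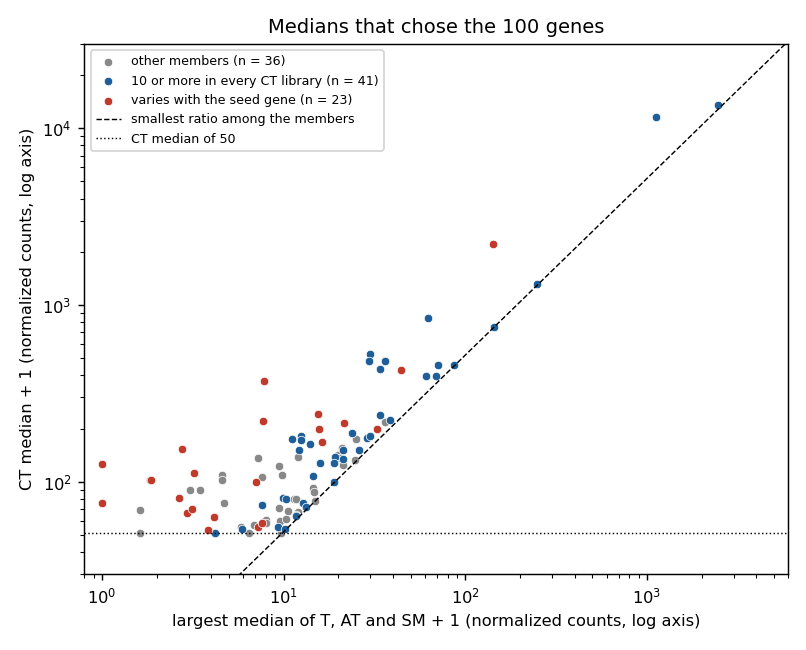
CT median (vertical) against the largest of the T, AT and SM medians (horizontal), both plus 1, in normalized counts on log axes, 1 point per gene. All 100 points lie above the dashed line of the smallest ratio, 5.21, and above the dotted line of a CT median of 50; red points, the 23 genes that varied with ENSFCAG00000028929 (the seed gene in the key), lie mostly at other-tissue medians under 10, and blue points are the 41 genes at 10 or more in every CT library.

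The genes fell into sets that differed in how evenly they were found across the 11 CT libraries. These sets were drawn after the values had been seen and are a description. In 41 genes the level was at 10 normalized counts or more in every CT library. In 29 genes it was under 10 in 1 or 2 CT libraries. In the remaining 30 it was under 10 in at least 3 and at most 5 CT libraries. In the CT libraries of cats 13 and 21 a level of 10 lies below what 3 counts give (14.2 and 18.2), so there the limit falls at fewer than 3 counts. The 41 genes are called even here only because they were at 10 or more in every CT library. The SD of the log2 level across CT libraries had a median of 1.81 over the 100 genes and of 1.01 over the 41 even genes. It was 0.68 over all 9147 genes with a CT median of at least 50, so the even genes varied more than genes at large.

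**Figure D2:**
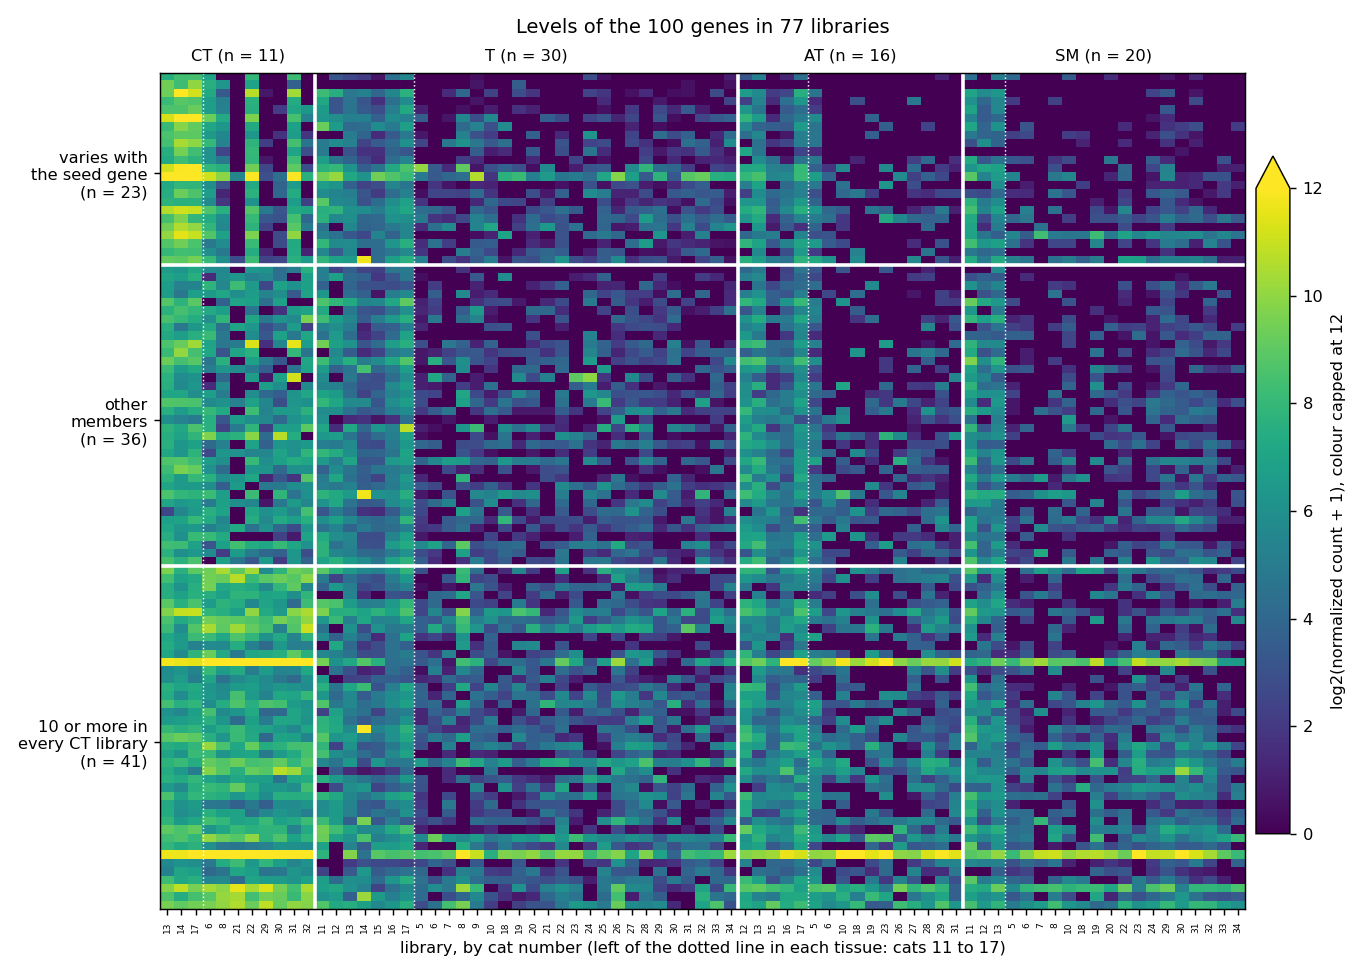
Level of each of the 100 genes (rows) in each of the 77 libraries (columns, by tissue and cat number) as log2(normalized count + 1), with the color capped at 12. In the top rows, the 23 genes that varied with the seed gene ENSFCAG00000028929, CT libraries of cats 21, 29, 30 and 32 are dark while those of cats 6, 13, 14, 17, 22 and 31 are bright; the bottom rows, the 41 even genes, are bright in all 11 CT libraries.

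Both genes with the largest ratios had no count in part of the CT libraries. ENSFCAG00000014025 had the largest ratio of all, 125. Its normalized count was 354 in CT of cat 17, 327 in cat 14, 303 in cat 31, 248 in cat 22, 184 in cat 13 and 124 in cat 6, and it was 0 in CT of cats 8, 21, 29, 30 and 32. The CT median of 124 was thus the lowest of the 6 libraries in which the gene was found, and over the 8 CT libraries without cats 11 to 17 the median was 0. It had no count in 20 of 30 T, 11 of 16 AT and 13 of 20 SM libraries, and its highest level outside CT was 45.2, in T of cat 17.

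ENSFCAG00000041710, second with a ratio of 76.1, was the gene found least often outside CT. It had counts in 7 of 11 CT libraries but in only 4 of the 66 others, all of them T. No count was found in any of the 16 AT or 20 SM libraries, and the highest level outside CT was 10.8, in T of cat 19. In CT it reached 1019 in cat 17, 675 in cat 13, 307 in cat 14, 182 in cat 6, 123 in cat 22, 75.1 in cat 8 and 12.3 in cat 31. It was at 0 in CT of cats 21, 29, 30 and 32. Its CT median was 75.1, and 6.17 without cats 11 to 17.

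The same cats recurred over many genes. Among the 30 genes under 10 in at least 3 CT libraries, ENSFCAG00000028929 had the highest CT median, 425 (61.5 without cats 11 to 17), and was taken as the reference for this pattern. In 23 of the 100 genes, this one included, the log2 level followed it across the 11 CT libraries with a Pearson correlation over 0.8. The 11 points share their libraries and scaling, and the correlation is given as a description. The same limit was passed by 137 of the 9147 genes with a CT median of at least 50, which is 1.498%. Without cats 11 to 17, over 8 CT libraries, 20 genes passed the limit, all of them among the 23. None of the 41 even genes was among the 23, and 8 of the 100 genes had a correlation under -0.5.

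The mean log2 level of these 23 genes was 9.90 in CT of cat 14, 9.62 in cat 17 and 8.92 in cat 13. It was 8.23 in cat 22, 7.91 in cat 31, 7.26 in cat 6 and 5.14 in cat 8. It was 2.50 in cat 32, 1.32 in cat 30, 1.02 in cat 29 and 0.36 in cat 21. In CT of cat 21, where 3 counts correspond to 18.2 normalized counts, 21 of the 23 genes had no count, so its low mean is not a bound on their level. Of the 23 genes, 2 had a count in CT of cat 21, 10 in cat 29, 10 in cat 30 and 13 in cat 32, whereas 22 had one in cat 8 and all 23 in the other CT libraries. Their summed share of all counts ran from 0.0009% in cat 21 to 1.55% in cat 14.

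The 41 even genes did not follow this order. Their mean log2 level lay between 7.14, in CT of cat 29, and 8.07, in CT of cat 6, and CT of cat 21, lowest for the 23 genes, stood at 7.94. Their summed share of all counts ran from 0.41% in cat 14 to 1.18% in cat 30. Both sets were formed from these CT levels, so nothing is read from the difference between their ranges. Single genes of the 41 varied more than the mean, as ENSFCAG00000010400 did, from 54.4 to 1369 normalized counts. CT of cat 21 had 863878 counts and 9698 genes with a count, the fewest genes of the 11, and 37 of the 100 genes were at 0 there. CT of cat 13 had fewer counts, 847003, and all 100 genes were found in it. CT of cat 29 had 6174858 counts and 17 of the 100 genes at 0. The part of depth and of gene detection in this pattern was not tested further.

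**Figure D3:**
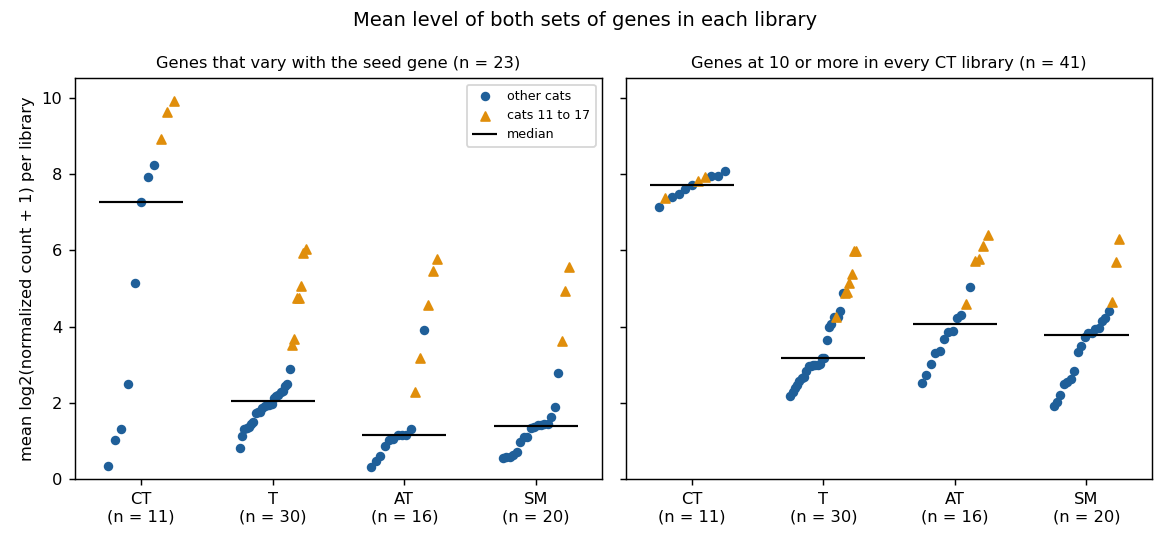
Mean log2(normalized count + 1) per library of the 23 genes that varied together (left) and of the 41 even genes (right), by tissue; triangles are libraries of cats 11 to 17 and the bar is the median of the tissue. In CT the left panel spans 0.36 to 9.90 and the right panel 7.14 to 8.07, both sets having been formed from CT levels. In T, AT and SM the triangles lie mostly above the circles in both panels.

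The largest ratios were more frequent in the uneven set. Of the 20 genes with the largest ratios 11 belonged to the 23, of the first 50 genes 20, and of the last 50 only 3. The median ratio was 15.8 in the 23 genes and 7.07 in the 41 even ones. These ratios are over all 11 CT libraries. Without cats 11 to 17, 5 of the 23 genes were chosen again, beside 38 of the 41 even ones. The CT median itself was in the middle of the 23 genes at 111 normalized counts and of the even genes at 170. The other tissues were lower in the uneven set, with medians over its genes of 2.27 in T and 0 in AT and SM, against 10.2, 17.96 and 10.98 in the even set. Across the 66 libraries outside CT, a gene of the 23 had a count in 37 libraries at the median (range 4 to 57), and an even gene in 54 (range 34 to 65).

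Outside CT the libraries of cats 11 to 17 were higher for both sets. In T the mean log2 level of the 23 genes was 4.82 ± 0.98 (SD, n = 7) in cats 11 to 17 and 1.86 ± 0.49 (SD, n = 23) in the other cats. For the even genes the same values were 5.22 ± 0.62 (SD, n = 7) and 3.21 ± 0.75 (SD, n = 23). In AT the 23 genes stood at 4.25 ± 1.49 (SD, n = 5) and 1.19 ± 0.96 (SD, n = 11), and in SM at 4.71 ± 0.98 (SD, n = 3) and 1.24 ± 0.57 (SD, n = 17). In CT the even genes were at 7.70 ± 0.30 (SD, n = 3) in cats 13, 14 and 17 and at 7.66 ± 0.32 (SD, n = 8) in the other cats. The 23 genes were there at 9.48 ± 0.51 (SD, n = 3) and 4.22 ± 3.30 (SD, n = 8). In these means CT stood less far above T within cats 11 to 17 than within the other cats for the even genes, and farther above it for the 23.

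Whether the 23 genes also moved together in tissues that had no part in grouping them was looked at over T, AT and SM. The median pairwise correlation among the 23 genes was 0.44 in T, 0.61 in AT and 0.53 in SM, against 0.31, 0.40 and 0.38 among the other 77 genes. Genes without any variation in the libraries used were left out of these medians. ENSFCAG00000041710, at 0 in all 16 AT and 20 SM libraries, thus did not enter in AT and SM. Without cats 11 to 17 the values of the 23 genes fell to 0.04 in T, 0.33 in AT and 0.18 in SM, and those of the other genes to 0.09, 0.13 and 0.18. In CT, where the set was formed, the value was 0.93 over 11 libraries and 0.89 over the 8 of the other cats. The AT value of 0.33 rested on the adipose library of cat 5. Without it and without cats 11 to 17 the value in AT was -0.0865 for those of the 23 genes that varied there. It was 0.02 for the others, over 10 libraries. Outside CT the correlations were therefore at or under 0.18 once these libraries were left out. Over the 23 genes the middle of the medians was 0 in AT and SM, and a gene without counts cannot follow another. The low values thus do not decide whether the genes moved together there.

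Several genes stood for the set. ENSFCAG00000010022 had the highest CT level of the 23, 24251 normalized counts in cat 14. It was at 17169 in cat 17, 8250 in cat 22, 7851 in cat 13, 7015 in cat 31, 2217 in cat 6 and 966 in cat 8. It was at 194 in cat 32, 42.5 in cat 21, 20.8 in cat 30 and 6.52 in cat 29. It was also found in every T library, from 2.64 to 1582 with a median of 141, while its medians were 13.2 in AT and 4.31 in SM. CT of cats 8, 21, 29, 30 and 32 lay within the range of T.

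The reference gene ENSFCAG00000028929 was likewise not absent elsewhere. In CT it ran from 0 in cats 21, 29 and 32 to 2940 in cat 14. It was found in all 20 SM libraries, from 10.6 to 323 with a median of 43.2. In AT it was at 0 in 10 of 16 libraries with a highest level of 40.9, and in T it was at 0 in 12 of 30 with a highest level of 125. SM and AT differed for this gene, as described with the calls between tissues.

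Among the 41 even genes were the 2 with the highest CT medians of the whole list. ENSFCAG00000023366 had a CT median of 13570 and ENSFCAG00000028703 of 11569 normalized counts. CT levels of the former were 3318 to 4848 in cats 13, 14 and 17 and 11690 to 24502 in the other 8 cats, so these 3 libraries were the lowest of the 11. CT levels of the latter were 2884 to 3515 and 5877 to 16809. Both genes thus ran opposite to the 23 genes in the CT libraries of cats 13, 14 and 17. ENSFCAG00000023366 was plentiful in every tissue, with medians of 2463 in AT, 1277 in SM and 445 in T. ENSFCAG00000028703 had medians of 1117 in AT, 569 in SM and 35.2 in T.

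ENSFCAG00000010400 and ENSFCAG00000009811 had the largest ratios among the even genes, 17.7 and 16.3. The former ran in CT from 54.4 in cat 29 to 1369 in cat 8, with a median of 527, and had medians of 28.9 in AT, 20.7 in SM and 13.9 in T. The latter ran in CT from 114 in cat 14 to 1695 in cat 21, with a median of 481, and had medians of 28.6 in AT, 4.27 in T and 1.31 in SM. Its highest level outside CT was 227, in T, so that it overlapped CT only through the CT libraries of cats 14 and 17, at 114 and 162.

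**Figure D4:**
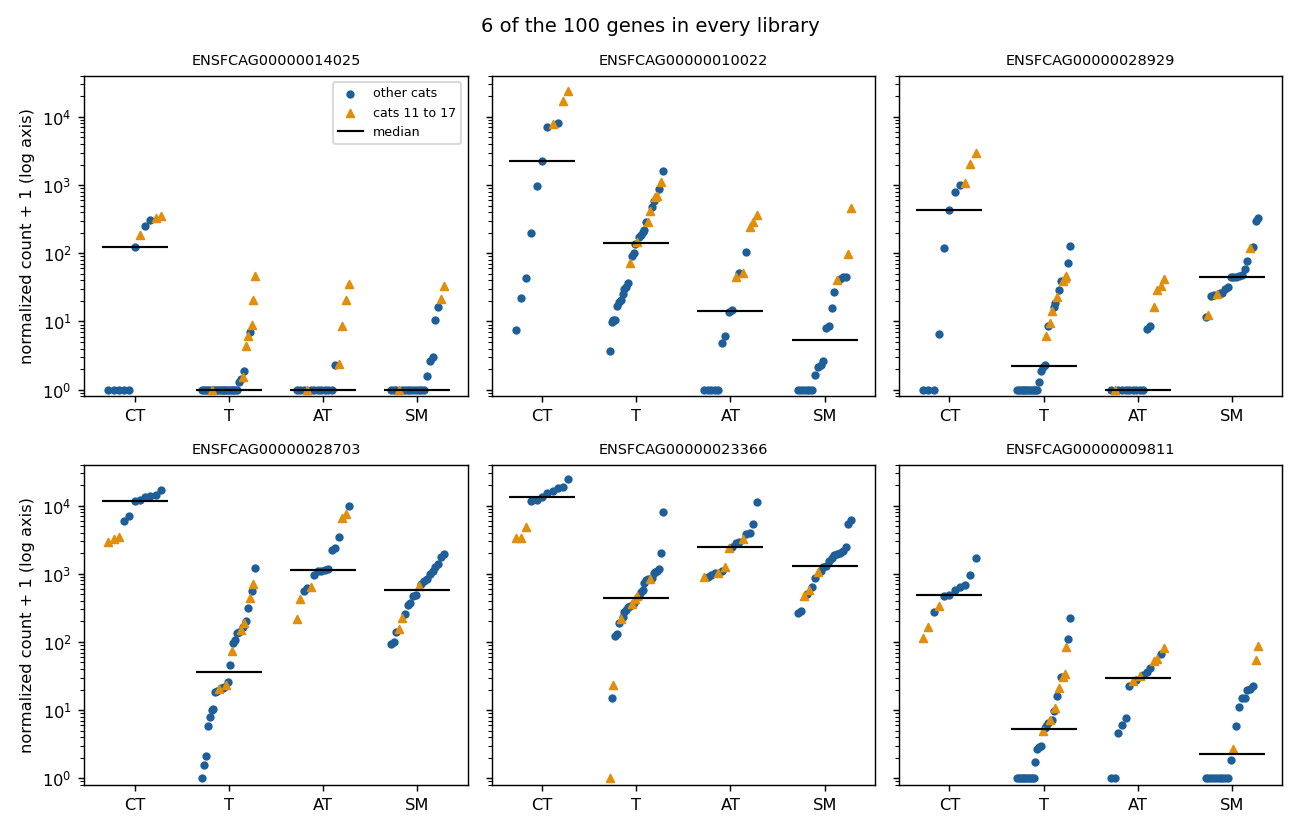
Normalized count plus 1 on a log axis of 6 of the 100 genes in every library, by tissue; triangles are cats 11 to 17 and the bar is the median of the tissue. The upper 3 genes belong to the set of 23 and span more than 2 decades within CT, with ENSFCAG00000028929 also present in all 20 SM libraries; the lower 3 are even genes, and ENSFCAG00000028703 and ENSFCAG00000023366 are lowest in the CT libraries of cats 13, 14 and 17.

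No gene separated CT from all other tissues in every library. Every CT library lay above every T, AT and SM library for 0 of the 100 genes, and for 0 of the 9147 genes with a CT median of at least 50, or 0%. Without cats 11 to 17 this held for 2 of the 100 genes, ENSFCAG00000009811 and ENSFCAG00000023366, and for 7 of the 9147 genes, or 0.0765%. Since the genes were chosen on the same contrast, nothing is read from these counts.

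Tissues of the same cat are given as a description, since the genes were chosen on this contrast and the 23 were grouped by their CT levels. CT was above T in all 11 cats with both tissues for 31 of the 100 genes and for 4.71% of the 9147 genes. These were 24 of the 41 even genes and none of the 23. CT was above AT in all 5 cats with both for 59 genes (10.2% of the 9147), among them 35 of the 41 and 7 of the 23. CT was above SM in all 8 cats with both for 51 genes (21.2% of the 9147), among them 37 of the 41 and 1 of the 23. By cat, the genes higher in CT than T ranged from 61 of 100 in cat 21 to 99 of 100 in cat 13. Of the 23 genes, 0 were higher in CT than T in cat 21, 5 in cat 29, 9 in cat 30, 9 in cat 32 and 17 in cat 8, against 22 or 23 in each of the other 6 cats.

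In 2 genes, singled out after their values were seen, a single library held over 50% of the sum over the 11 CT libraries. For ENSFCAG00000012443 this was CT of cat 14 with 53.2%. ENSFCAG00000015791 had 2320 normalized counts in CT of cat 31, which was 80.7% of its sum over the 11 CT libraries. The next CT levels were 203 in cat 13, 118 in cat 30 and 93.6 in cat 22, and CT of cats 6, 21 and 32 had none. The same gene was also high in 2 tumors, at 999 in T of cat 24 and 525 in T of cat 23, while its T median was 5.83.

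The highest T library lay above the highest CT library for 16 of the 100 genes. Singled out after their values were seen, ENSFCAG00000000075, ENSFCAG00000018551 and ENSFCAG00000014859 had 5023, 3440 and 3377 normalized counts in T of cat 14. The next highest T library had 231, 227 and 231, and the highest CT library 286, 387 and 714. These were the only 3 of the 100 genes with a library of T, AT or SM over 1000 and more than 10 times the next of its tissue.

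T, AT and SM were then compared with each other. Their medians entered the choice of the genes through the largest of the 3, which kept all of them low against CT but did not set which of them was higher. A gene high in 1 of the 3 could enter only with a still higher CT median, which can lower the number called. A count below the share over all genes is therefore not read as a property of these genes. They were tested in pairs with edgeR over all genes. A gene was called at an adjusted p under 0.05 and a log2(FC) beyond 1. Low counts kept part of the list out of each test, so the counts below are of genes called, and the genes not tested are no evidence either way. A gene can also pass the filter on low counts through the 1 tissue in which it is high. Calls of such genes are given with their values, and nothing further is read from them.

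Between AT and T, 86 of the 100 genes could be tested and 5 were called. In AT, 3 were higher, where 10.2% of all 14016 genes tested were called higher. In T, 2 were higher, where 9.08% of all genes were. The gene with the largest difference was ENSFCAG00000028703. Its normalized counts ran from 213 to 9857 in AT (median 1117) and from 0 to 1221 in T (median 35.2). The AT and T ranges overlapped, and the log2(FC) of AT over T was 4.02 (SE 0.63, adjusted p = 1.3e-06, edgeR).

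ENSFCAG00000001602 was the next. It was at 0 in 17 of 30 T libraries with a highest level of 148, and in AT it ran from 0 to 387 with a median of 59.8. Its log2(FC) was 2.88 (SE 0.84, adjusted p = 0.00557, edgeR), and without cats 11 to 17 it was 2.14 with an adjusted p of 0.106 and no longer called. Within them it was 5.27 (adjusted p = 0.000847, edgeR), and with the cat as a block 4.49 (adjusted p = 0.00252, edgeR). The third, ENSFCAG00000023366, had a log2(FC) of 1.88 (SE 0.48, adjusted p = 0.00161, edgeR). All 3 belonged to the even genes.

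Higher in T than AT were ENSFCAG00000015791, at 10 or more in 13 T and 4 AT libraries, and ENSFCAG00000010022, in 26 T and 9 AT libraries. Both may have passed the filter on low counts mainly through T. The former had a log2(FC) of -2.98 (SE 1.11, adjusted p = 0.0317, edgeR) with its highest T levels in cats 24 and 23, as given above, and AT running from 0 to 47.3. Its log2(FC) was -1.93 with DESeq2 (adjusted p = 0.111, DESeq2) and -2.58 without TMM (adjusted p = 0.0671, edgeR). Within cats 11 to 17 it was -0.23 (adjusted p = 0.967, edgeR), and in none of these was it called. For ENSFCAG00000010022, T ran from 2.64 to 1582 (median 141) and AT from 0 to 362 (median 13.2), with a log2(FC) of -2.09 (SE 0.74, adjusted p = 0.0227, edgeR). This was -3.72 without cats 11 to 17 and -1.42 within them (adjusted p = 0.00282 and 0.264, edgeR). With the cat as a block, in the 16 cats with both tissues, 54 genes could be tested. Of these 7 were higher in AT, beside 12% of all 12704 genes tested, and 1 was higher in T, beside 10.2%. The 3 genes higher in AT were among the 7, and ENSFCAG00000015791 could not be tested there. When cats 11 to 17 were left out, 66 genes could be tested and 3 were called in each direction, beside 11.4% higher in AT and 12.3% higher in T, and ENSFCAG00000015791 was again not testable.

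Between SM and T, 74 genes could be tested. In SM 5 were higher, against 16.9% of all 13771 genes tested, and in T 14 were higher, against 24.1%. Among the 5 were 4 even genes and ENSFCAG00000028929. Among the 14 were 6 of the 23 genes, of which 12 could be tested, and 4 of the even genes, of which 38 could be. One of these even genes was ENSFCAG00000000075, with a log2(FC) of SM over T of -2.82 (SE 0.91, adjusted p = 0.00647, edgeR). Its medians were 15.6 in T and 14.4 in SM, and T of cat 14 had 5023 beside 231 in the next T library. A fit without that library was not run. A gene low in SM can pass the filter on low counts through T alone. ENSFCAG00000003353, of the 23, was over 10 in 19 T but 3 SM libraries. The counts of the 2 sets are therefore not compared. The largest increase in SM was that of ENSFCAG00000001602. It had counts in all 20 SM libraries, from 3.57 to 1144 with a median of 69.7, and its log2(FC) over T was 3.63 (SE 0.77, adjusted p = 6.22e-05, edgeR). ENSFCAG00000028703 followed with 2.22 (SE 0.55, adjusted p = 0.000512, edgeR), its SM levels running from 93.2 to 1925. Without scaling by TMM its log2(FC) was 1.11, within cats 11 to 17 it was 0.48, and in neither was it called. With the cat as a block it was 3.98 (adjusted p = 0.000323, edgeR), and that of ENSFCAG00000001602 was 6.80 (adjusted p = 2.09e-08, edgeR).

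The largest decreases from T to SM were those of ENSFCAG00000015298 and ENSFCAG00000015791. The former was at 0 in 11 of 20 SM libraries with a highest level of 66.8, while T ran from 0 to 480 with a median of 32.9. Its log2(FC) of SM over T was -3.67 (SE 0.72, adjusted p = 1.88e-05, edgeR). Without cats 11 to 17 it was -4.32 (adjusted p = 4.75e-06, edgeR), and within them it was -0.97 and not called. ENSFCAG00000015791, high in T of cats 24 and 23, had a log2(FC) of -3.61 (SE 1.08, adjusted p = 0.00346, edgeR), which was -2.23 with DESeq2 (adjusted p = 0.0429) and 0.84 within cats 11 to 17. With the cat as a block, in the 20 cats with both tissues, 51 genes could be tested. Of these 8 were higher in SM, beside 19.2% of all 12820 genes tested, and 5 were higher in T, beside 25.4%. All 5 genes higher in SM were among the 8. Of the 14 higher in T, 6 could be tested under the block and 4 were called, and ENSFCAG00000015791 was not testable. Leaving out cats 11 to 17, 55 genes could be tested, with 4 higher in SM beside 17.9% of all genes and 11 higher in T beside 26.9%, and ENSFCAG00000015791 was not testable there either.

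Between AT and SM, 41 genes could be tested. In AT 4 were higher, against 21.1% of all 12053 genes tested, and in SM 1 was higher, against 13.8%. ENSFCAG00000035810 ran from 0 to 217 in AT (median 23.99) and from 0 to 63.2 in SM (median 2.82). Its log2(FC) was 2.41 (SE 0.80, adjusted p = 0.0103, edgeR), and within cats 11 to 17 it was 0.45 and not called (adjusted p = 0.866, edgeR). ENSFCAG00000005607 had medians of 13.02 in AT and 6.99 in SM and a log2(FC) of 2.07 (SE 0.71, adjusted p = 0.0131, edgeR), which was 1.30 with an adjusted p of 0.179 without cats 11 to 17. The gene higher in SM was ENSFCAG00000028929, with a log2(FC) of -3.05 (SE 0.74, adjusted p = 0.000605, edgeR). This was -5.69 without cats 11 to 17 and -0.81 within them (adjusted p = 1.2e-06 and 0.834, edgeR). Of the 23 genes 6 could be tested between AT and SM, and it was the 1 called. It was at 10 or more in 20 SM but 4 AT libraries and so could pass the filter on low counts through SM alone. With the cat as a block 28 genes could be tested, 4 were higher in AT and 1 in SM, beside 19.3% and 15.4% of all genes. Of the 4 higher in AT without the block 2 could be tested under it, and both were called. ENSFCAG00000035810 and ENSFCAG00000005607 could not be tested under the block, so their calls have no paired value. In the libraries outside cats 11 to 17, 35 genes could be tested, 3 were higher in AT and 1 in SM, beside 19.3% and 15.4% of all genes, and ENSFCAG00000035810 was not testable.

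Over the genes tested, the median log2(FC) of the list was 0.22 for AT over T beside -0.06 for all genes tested, -0.70 for SM over T beside -0.24, and 0.60 for AT over SM beside 0.23. These medians are over the genes that passed the filter on low counts and not over the whole list. With the cat as a block, in the 20 cats with both tissues, the median for SM over T was 0.03 over the 51 genes tested, beside -0.20 for all genes. Over the same 51 genes it was -0.33 without the block and with all 30 T libraries. For AT over T it was 0.09 with the block and 0.37 without it, over the same 54 genes. For AT over SM it was 0.435 with the block and 0.568 without it, over the same 28 genes. Within cats 11 to 17 alone, edgeR was run on 5 AT, 3 SM and 7 T libraries. Of 94 genes tested 3 were higher in AT than T and 0 higher in T, beside 2.98% and 0.829% of all genes. Of 98 tested 2 were higher in SM than T and 0 higher in T, beside 4.73% and 3.76%. Between AT and SM no gene was called, beside 3.74% and 4.47%. At an unadjusted p under 0.05 there were 7 higher in AT and 6 higher in T, beside 8.25% and 5.29% of all genes. There were 5 higher in SM and 6 higher in T, beside 9.1% and 13.1%, and between AT and SM 4 higher in AT and 0 higher in SM, beside 11.4% and 8.6%.

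How far the list itself holds was asked by choosing it again in other ways. Scaling by TMM gave back 86 of the 100 genes, and taking the mean in place of the median 37. A CT limit of 20 gave back 60 and one of 100 gave back 58, the other 42 falling below that limit. Leaving out 1 CT library at a time gave back between 74 genes, without cat 21, and 89, without cat 31. Without cats 11 to 17, 70 genes were chosen again. Of the 30 lost, 27 fell below the CT limit. Among the 70 were 38 of the 41 even genes but 5 of the 23. As the 23 genes were highest in CT of cats 13, 14 and 17, this loss follows from the values that formed the sets, and nothing is read from it. Conversely, 1221 genes had a CT mean of at least 50 and a CT median under it, and 129 of them also followed ENSFCAG00000028929 with a correlation over 0.8.

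**Figure D5:**
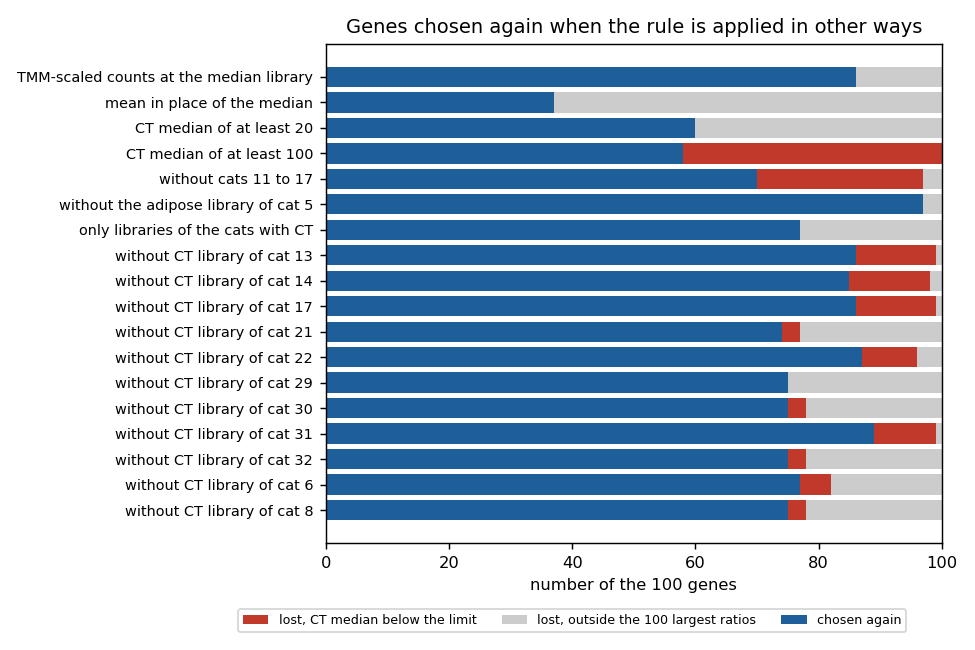
Number of the 100 genes chosen again (blue) when the rule was applied in other ways, with the genes lost because their CT median fell below the limit (red) and those lost because their ratio was no longer among the 100 largest (gray). The mean in place of the median leaves 37 genes, the choice without cats 11 to 17 leaves 70, and leaving out single CT libraries leaves 74 to 89.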

How the data were processed

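Total RNA of LCM-isolated feline tissue was sequenced as 77 single libraries (30 T, 16 AT, 11 CT and 20 SM). Each library has its own table of raw gene counts as deposited by the authors, neither pooled nor normalized. The submitters' processing notes name STAR and featureCounts, whereas the methods name Trimmomatic and Kallisto; which made these counts was not settled. Groups and cat numbers were taken from the sample titles. No 2 libraries held identical values.

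Counts were divided by median-of-ratios size factors from the 6527 genes with counts in every library (Python 3.11.15, pandas 2.3.3, numpy 2.4.6), and the rule given at the start of the results was applied with a limit of 50 and 1 added to each median. Log2 levels are log2(normalized count + 1). AT, SM and T were compared in pairs with edgeR 4.0.16 (R 4.3.3): TMM, filterByExpr, quasi-likelihood test, Benjamini-Hochberg adjustment over all genes tested, as edgeR with TMM and a generalized linear model was used in the study. In simulated data for these comparisons, of 200 genes changed by a log2(FC) of 2, edgeR recovered 79% for AT and T, 76% for SM and T and 79.5% for AT and SM. These hold for all genes tested, while most of the genes described here are low outside CT. The same cat gave samples of several tissues, so cat numbers pair the libraries: deviations from the tissue mean correlated with a median r of 0.18 between AT and T of the same cat and 0.03 between different cats (SM and T 0.12 and 0.02, AT and SM 0.19 and 0.02). A fit with the cat as a block and DESeq2 1.42.0 were among the alternatives.

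The genes and gene lists were chosen with earlier results of these data known. Lists of matrix, fibroblast and cell type markers were drawn up but could not be matched, as the identifiers were not paired with symbols. For the same reason at most 2 identifiers per direction and comparison are named by size of change (3 for AT over T, where 3 were called), with a few singled out after their values were seen, as said there. Counting error alone limits a count of 0, which allows up to 3 counts; in CT these correspond to 2.05 to 18.2 normalized counts.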

Additional observations from a re-analysis of the deposited data

How the results depend on the processing

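Of 154 values recomputed under another setting, 116 kept their direction and side of the threshold, or stayed within 1.5 times for counts. Correlations were never counted as kept. A count within 1.5 times can hold other genes. Without cats 11 to 17, 3 genes were higher in T than AT, and 1 of them was among the 2 called before. The cat as a replicate block was fitted only in cats with both tissues, so the model and the libraries changed together. Their parts were not separated. In that fit, genes called between AT and T went from 3 to 7 higher in AT and from 2 to 1 higher in T (12% and 10.2% of all genes), while the genes tested fell from 86 to 54. Between SM and T they went from 5 to 8 higher in SM and from 14 to 5 higher in T (19.2% and 25.4% of all genes), while the genes tested fell from 74 to 51 and 6 of the 14 could be tested. Between AT and SM the block gave 4 and 1 as before, but of the 4 only 2 were called in both, the other 2 having too few counts to be tested. Without TMM, 1 gene was higher in T than AT (8.62% of all genes), 1 was higher in SM than T (5.45%), 36 were higher in T than SM (61.7%) and 20 were higher in AT than SM (62.5%). That scaling moved the median log2(FC) of all genes tested from -0.24 to -1.42 for SM over T and from 0.23 to 1.36 for AT over SM. Between AT and SM, 8 of 41 tested were higher in AT with DESeq2 (20.2% of all genes), 10 of 99 with no filter on low counts (16% of all genes) and 8 of 55 where 10 counts were asked of 0.5 of the AT or SM libraries (19.4% of all genes). Only with cats 11 to 17, which was tried after seeing the data, 0 genes were higher in T than AT, 2 higher in SM than T, 0 higher in T than SM, and 0 were called between AT and SM in either direction, with fewer libraries. There ENSFCAG00000015791 turned from -3.61 to 0.84 for SM over T (adjusted p = 0.695, edgeR). The cause of these changes was not tested. The median pairwise correlation in AT, over those of the 23 genes that varied in the libraries used, turned from 0.61 to -0.0865. This was without cats 11 to 17 and the adipose library of cat 5, also tried after seeing the data.

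Of the 100 genes, 37 were chosen again by the mean, 60 with a CT limit of 20, 58 with one of 100, and 74 to 89 when 1 CT library was left out. The set of 41 even genes was 49 at a level of 5, 32 at 20 and 41 without cats 11 to 17, and the set of 23 was 27 at a correlation over 0.7, 19 over 0.9 and 27 with ENSFCAG00000010022 as reference, which included all 23. The settings for these 2 sets were added after seeing the data. Depth limits the zeros: in CT of cat 21, with 863878 counts, a count of 0 allows up to 18.2 normalized counts.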
